A study of Mus musculus with 2 samples.

Results

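The 37 autophagy, mitophagy and lysosome genes described here were taken from a fixed list of names and matched by symbol among 55536 annotated genes. All 37 were found. They were measured by total RNA sequencing of the gastrocnemius, the large calf muscle, in 2 libraries that the labels place in 1 group. The animals were males of B6CASTF1/J, a first-generation cross between C57BL/6J and CAST/EiJ. The sample descriptions give 18 to 20 months, while the field for age is marked unknown. No genotype change or treatment is recorded, so no condition could be compared, and the replicates are described here library by library. The labels call the libraries biological replicates of differently numbered males but attach the same donor record to both. The p-values below therefore measure only how far these libraries differ beyond counting error.

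Autophagy encloses cytoplasm, protein aggregates or organelles in a membrane sac that fuses with the lysosome, where hydrolases break the cargo down. A kinase complex starts the process, a lipid kinase marks the membrane, and a ubiquitin-like conjugation system attaches proteins of the LC3 and GABARAP subfamilies to it. Cargo receptors bridge those proteins to the cargo, and mitophagy receptors do so for mitochondria. Skeletal muscle uses the pathway to turn over mitochondria and contractile proteins, and it is induced there by fasting and disuse.

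Genes of cargo delivery and of the lysosome, rather than those that build the autophagosome, held most of the RNA. The mitophagy kinase Pink1 was the most abundant member at 314 ± 52.4 TPM (SD, n = 2), and the cargo receptor Sqstm1 stood second at 254 ± 0.608 TPM. TPM is transcript abundance per effective length, scaled to a fixed total in each library. The lysosomal genes Ctsd, Lamp1 and Ctsb came next by the mean of both libraries. The lowest was Atg14, a subunit of the lipid kinase complex, at 2.86 ± 0.0424 TPM. The libraries were close for most members, and Gabarapl1 was the only member called different between them by the rule given below.

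All 37 members reached 1 TPM or more in each library, the level taken here as detected. The median TPM over 10063 detected nuclear protein-coding genes was 8.21, and 28 members had a mean above it, with 10 members above the 90th percentile. Summed over members, TPM was 1848 in replicate 1 and 2072 in replicate 2, which is 0.403% and 0.473% of nuclear protein-coding TPM (0.438 ± 0.0494%, SD, n = 2). The 5 most abundant members held 53.3% of that sum in replicate 1 and 52.3% in replicate 2. By role, the lysosomal genes held 27.8% and 26.7% of member TPM, the mitophagy genes 23.0% and 25.7%, and the 3 cargo receptors 17.4% and 15.6%. The 5 LC3 and GABARAP genes held 15.7% in replicate 1 and 16.8% in replicate 2. The 18 genes for initiation, the lipid kinase step and conjugation were lower. The initiation complex held 4.55% and 3.98%, the lipid kinase group 6.86% and 6.67%, and the conjugation machinery 2.41% and 2.36%. These shares depend on which genes were listed. Outside the members, 30 lysosomal enzyme genes had a median of 4.41 TPM in replicate 1 and 5.145 TPM in replicate 2. For 27 other core autophagy genes the medians were 7.87 and 8.05 TPM.

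**Figure D1:**
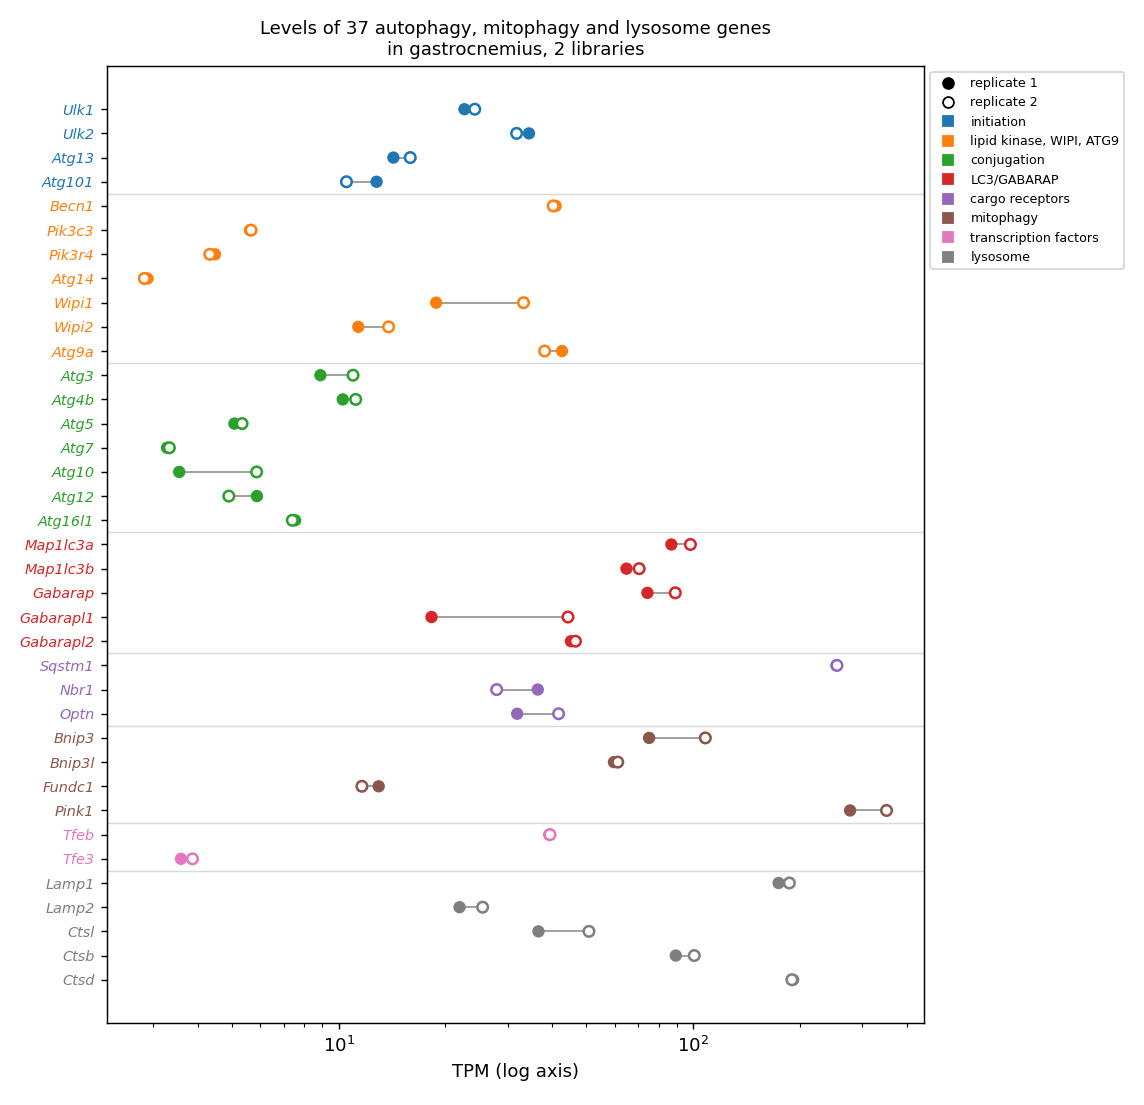
Levels of the 37 genes in TPM on a log axis, with replicate 1 as filled and replicate 2 as open circles, grouped and coloured by role. Pink1 and Sqstm1 lie farthest right, Atg14 farthest left, and the line between the circles is longest for Gabarapl1.

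Replicate 1 held 40795740 expected counts in all, against 44919441 in replicate 2. Members held from 147 to 18724 counts in replicate 1 and from 245 to 25544 in replicate 2. The markers that define the labelled muscle were present, with 8 fast fibre markers summing to 81293 TPM in replicate 1 and 65336 TPM in replicate 2. Against that sum, 2 of the 8, Myh1 and Myh2, were called higher in replicate 2. The 7 slow fibre markers summed to 192 TPM in replicate 1 and 2122 TPM in replicate 2, and all 7 were called higher in replicate 2. Summed levels were 46.9 and 53.3 TPM for 10 macrophage markers, of which 0 were called. They were 35.4 and 53.1 TPM for 6 endothelial markers, with 2 called higher in replicate 2, and 240 and 231 TPM for 5 fibroblast markers, with 0 called. For 5 adipocyte markers they were 21.4 and 34.9 TPM, with 1 called higher in replicate 1 and 2 in replicate 2. For 5 Schwann cell markers they were 19.7 and 31.3 TPM, with 2 called higher in replicate 2. For 5 erythrocyte markers they were 371 and 483 TPM, with 0 called, and for 5 neutrophil and mast cell markers 3.05 and 5.86 TPM, with 1 called higher in replicate 2 and S100a9 at 0 in both. In a bulk sample, fewer cells of a type and less RNA per cell cannot be told apart.

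Each gene's rounded counts were compared between the libraries by a 2-sided exact binomial test with TMM library sizes, over 14965 genes whose counts averaged 10 or more, and p-values were adjusted by the Benjamini-Hochberg method. Ratios are replicate 1 over replicate 2. A gene was called at an adjusted p below 0.05 and a difference of at least 2-fold, which 6.18% of tested genes met (1.7% higher in replicate 1 and 4.48% higher in replicate 2). Of the 37 members, all of which passed the filter, none (0) was called higher in replicate 1, and 1 was in replicate 2. With the filter raised to a mean count of 100, 3.56% of tested genes were called. With the adjusted p alone, 21 members passed, 7 higher in replicate 1 and 14 higher in replicate 2, where 35.4% of tested genes passed. Tested genes reached down to a mean count of 10 and members to 196, and at higher counts this test passes smaller differences. With edgeR's exact test, 0 of those 21 passed. That test took its dispersion from the same 2 libraries, so the differences tested also count as spread. The median log2 ratio was -0.04 over members and -0.01 over all tested genes, and members ranged from -1.21 to 0.39. The libraries agreed within 1.25-fold for 29 members (78.4%), against 65.2% of tested genes and 75.5% of the 10302 genes whose counts averaged 100 or more. Only 2 members, Gabarapl1 and Wipi1, differed by 1.5-fold or more (5.41%), against 17.2% and 9.18% of those gene sets. Intervals below are 95% exact (Clopper-Pearson) and cover counting error only, with no variation between libraries. Sequencing reads without molecular tags are not independent molecules, so the intervals may be too narrow even for counting error.

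**Figure D2:**
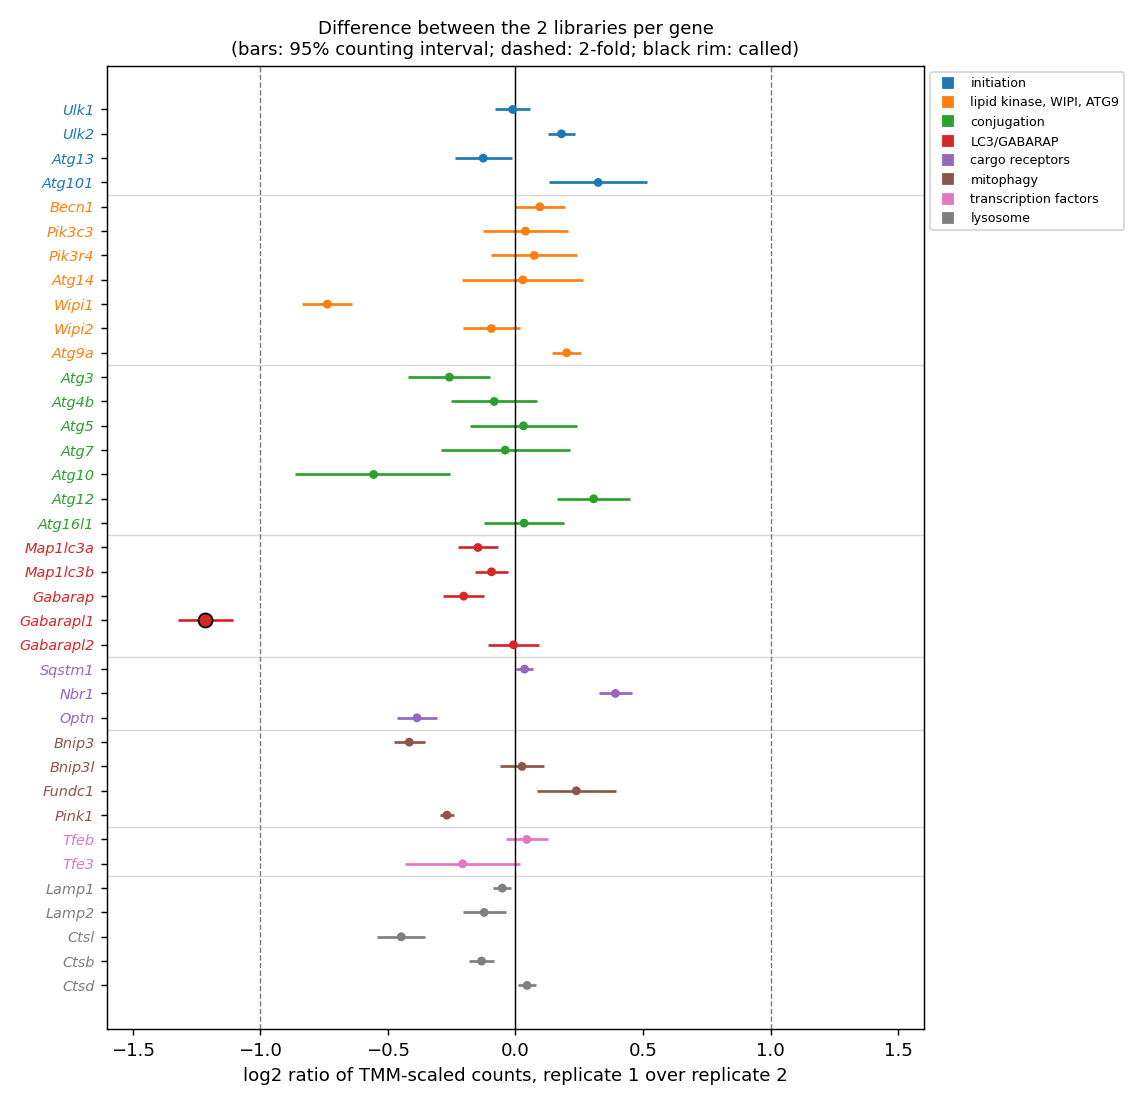
Log2 ratio of TMM-scaled counts, replicate 1 over replicate 2, for the 37 genes in role order, with bars for the 95% counting interval and dashed lines at 2-fold. Only Gabarapl1, at -1.21, lies beyond a dashed line, and Wipi1 at -0.74 is next.

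The LC3 and GABARAP proteins are ubiquitin-like. The protease ATG4 trims their carboxyl end to expose a glycine, which the conjugation system then joins to a membrane lipid. The ends of the coding sequences are shown because that glycine is where the whole subfamily is processed. Each is the last 45 bases of the coding sequence, stop codon included, in the GENCODE M21 transcript of the C57BL/6J reference, and capitals mark the last glycine codon.
Map1lc3a: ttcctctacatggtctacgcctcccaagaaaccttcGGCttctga
Map1lc3b: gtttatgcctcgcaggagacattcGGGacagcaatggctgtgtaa
Gabarap: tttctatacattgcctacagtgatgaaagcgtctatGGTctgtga
Gabarapl1: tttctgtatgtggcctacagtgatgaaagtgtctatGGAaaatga
Gabarapl2: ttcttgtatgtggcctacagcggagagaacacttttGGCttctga
In 4 of these genes 1 codon stands between the glycine and the stop, and in Map1lc3b there are 5. Over the whole coding sequence, Gabarap and Gabarapl1 were 74.9% identical and Map1lc3a and Map1lc3b 74.7%. Between an LC3 and a GABARAP gene, identity was 50.4% to 55.5%. The longest run of identical bases in any pair was 17. The deposited posterior spread of the gene counts was at most 0.712% of the count for any member, the highest being Map1lc3b.

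Gabarapl1, a GABARAP protein that also takes part in receptor trafficking, was 2.32-fold higher in replicate 2. It lies on chromosome 6 at chr6:129533160-129542346 (GRCm38, plus strand). It had 987 expected counts and 18.3 TPM in replicate 1, against 2595 counts and 44.4 TPM in replicate 2. The interval of the fold was 2.16 to 2.50 and the log2 ratio was -1.21 (exact binomial test, adjusted p = 1.96e-122). The estimated counts of the second quantification gave 32.9 TPM in replicate 1 and 65.6 TPM in replicate 2. The annotation also places 1700101I11Rik on the opposite strand of this locus, with 3 counts in replicate 1 and 24 in replicate 2, and Gm44243 on the same strand, with 13 and 12 counts. The counting strand is not stated, and these counts are small beside those of Gabarapl1. Its call was lost with edgeR's exact test, which takes a common dispersion from the same libraries. The slow fibre markers, all higher in replicate 2 as given above, move in the same direction, and their part in this difference was not tested.

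The other 4 members of the family were closer. Map1lc3a, an LC3 protein abundant in muscle, had 86.8 TPM in replicate 1 and 98.3 TPM in replicate 2, 1.11-fold higher in replicate 2 (log2 ratio -0.15, exact binomial adjusted p = 0.0012). Gabarap had 74.3 TPM in replicate 1 and 89.1 TPM in replicate 2 (log2 ratio -0.20, exact binomial adjusted p = 5.91e-06). Map1lc3b, the LC3 protein most often used as an autophagosome marker, had 64.9 TPM in replicate 1 and 70.4 TPM in replicate 2 and passed the adjusted p at a log2 ratio of -0.09. Gabarapl2 had 45.2 TPM in replicate 1 and 46.6 TPM in replicate 2, and its log2 ratio of -0.01 did not pass. Within the family, Gabarapl1 made up 6.32% of TPM in replicate 1 and 12.7% in replicate 2, and the second quantification gave 6.98% and 12.2%. The order of the others depended on the quantification. Map1lc3a led in the first, with 29.98% in replicate 1 and 28.2% in replicate 2. Map1lc3b led in the second, with 31.1% in replicate 1 and 29.1% in replicate 2. Map1lc3b lies wholly within the annotated gene Gm20388 on the same strand, which held 632 counts in replicate 1 and 588 in replicate 2, so its level depends on how reads were shared between them.

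The initiation genes were expressed at moderate levels. The kinases that start autophagosome formation, Ulk1 and Ulk2, had 22.6 and 34.4 TPM in replicate 1, against 24.2 and 31.8 TPM in replicate 2. Ulk1 did not pass the adjusted p, and Ulk2 was higher in replicate 1 (log2 ratio 0.18), a direction that reversed when ERCC spike-in counts set the library sizes. The other members of this group, Atg13 and Atg101, were lower. Atg13 had 14.3 TPM in replicate 1 and 15.9 TPM in replicate 2, which did not pass. Atg101 had 12.8 TPM in replicate 1 and 10.5 TPM in replicate 2 and was higher in replicate 1 (log2 ratio 0.32), which under spike-in scaling became 0.10 and did not pass (exact binomial adjusted p = 0.389).

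In the lipid kinase group, Wipi1 stood apart. WIPI proteins bind the lipid that the kinase makes on the forming sac. Wipi1, at chr11:109573331-109611967 on the minus strand, had 1292 counts and 18.8 TPM in replicate 1, against 2440 counts and 33.2 TPM in replicate 2. It was 1.67-fold higher in replicate 2 (interval 1.56 to 1.79, exact binomial adjusted p = 1.71e-50), short of the 2-fold limit. The second quantification gave 26.4 TPM in replicate 1 and 42.5 TPM in replicate 2. Both of its main coding transcripts had the larger value in replicate 2. Wipi1-202 had 15.2 TPM in replicate 1 and 27.6 TPM in replicate 2, and Wipi1-201 had 3.40 and 4.91 TPM. Wipi2, which recruits the conjugation complex, had 11.4 TPM in replicate 1 and 13.8 TPM in replicate 2 and did not pass.

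The 4 subunits of the kinase complex did not pass the adjusted p. Becn1, its scaffold, had 40.9 TPM in replicate 1 and 40.3 TPM in replicate 2. The catalytic subunit Pik3c3 had 5.62 and 5.66 TPM, the regulatory subunit Pik3r4 4.48 and 4.33 TPM, and Atg14, which directs the complex to autophagy sites, 2.89 and 2.83 TPM. Becn1 was thus far above its partners in gene TPM, but most of its TPM lay in transcripts not annotated as coding, as described below. Atg9a, a membrane protein of vesicles that seed the sac, had 42.7 TPM in replicate 1 and 38.1 TPM in replicate 2. It was higher in replicate 1 (log2 ratio 0.20), a direction that reversed under spike-in scaling.

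The conjugation genes were low throughout, between 3.28 and 10.3 TPM in replicate 1 and between 3.33 and 11.2 TPM in replicate 2. Atg7, the activating enzyme, had 3.28 TPM in replicate 1 and 3.33 TPM in replicate 2. The conjugating enzyme Atg3 had 8.88 and 10.98 TPM and was higher in replicate 2 (log2 ratio -0.26). Atg10, the other conjugating enzyme, had 147 counts and 3.55 TPM in replicate 1, against 245 counts and 5.87 TPM in replicate 2. It had the fewest counts of the members, was 1.47-fold higher in replicate 2, and passed the adjusted p (0.000983, exact binomial test). Atg12, the ubiquitin-like protein joined to ATG5, had 5.88 TPM in replicate 1 and 4.90 TPM in replicate 2 and was higher in replicate 1 (log2 ratio 0.31). Under spike-in scaling that ratio was 0.09 and did not pass (exact binomial adjusted p = 0.337).

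The remaining conjugation genes did not pass. Atg5 had 5.08 TPM in replicate 1 and 5.34 TPM in replicate 2, and Atg16l1, which places the ATG12 and ATG5 pair on the membrane, had 7.54 and 7.40 TPM. The protease Atg4b had 10.3 TPM in replicate 1 and 11.2 TPM in replicate 2. The locus of Atg4b overlaps Thap4 on the opposite strand, which held 988 counts in replicate 1 and 1037 in replicate 2, more than the 525 and 630 counts of Atg4b. Without a stated counting strand, reads of that overlap cannot be assigned with certainty.

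Among the cargo receptors, Sqstm1 was high and Nbr1 and Optn differed in opposite directions. Sqstm1, which binds ubiquitin on cargo and LC3 on the membrane, lies at chr11:50199366-50210827 on the minus strand. It had 14540 counts in replicate 1 and 16066 in replicate 2, and its TPM of 253.71 and 254.57 was the closest match among the 8 most abundant members (exact binomial adjusted p = 0.079). Nbr1, a receptor related to it, had 36.5 TPM in replicate 1 and 27.9 TPM in replicate 2 and was 1.31-fold higher in replicate 1 (exact binomial adjusted p = 1.05e-32). Optn, a receptor used in mitophagy and for bacteria, had 31.9 TPM in replicate 1 and 41.7 TPM in replicate 2 and was 1.31-fold higher in replicate 2 (exact binomial adjusted p = 4.25e-22). Which Nbr1 transcript carried the difference depended on the quantification. By the first, Nbr1-208, a transcript annotated for nonsense-mediated decay, had 13.8 TPM in replicate 1 and 5.97 TPM in replicate 2, while the coding transcript Nbr1-202 had 7.23 and 8.37 TPM. By the second, Nbr1-208 had 5.52 TPM in replicate 1 and 2.09 TPM in replicate 2, and Nbr1-202 had 31.7 and 23.3 TPM.

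The mitophagy genes included the most abundant member. Pink1, the kinase that accumulates on damaged mitochondria, lies at chr4:138313409-138326307 on the minus strand. It had 277 TPM in replicate 1 and 351 TPM in replicate 2 and was 1.20-fold higher in replicate 2 (log2 ratio -0.27, exact binomial adjusted p = 2.28e-82). Its transcript Pink1-201 held 85.0% of its TPM in replicate 1 and 81.0% in replicate 2. Bnip3, a receptor on the outer mitochondrial membrane that hypoxia induces, had 75.1 TPM in replicate 1 and 108 TPM in replicate 2. It was 1.33-fold higher in replicate 2 (log2 ratio -0.42, exact binomial adjusted p = 1.42e-40). Its relative Bnip3l had 59.8 TPM in replicate 1 and 61.3 TPM in replicate 2 and did not pass. Fundc1, another receptor of that membrane, had 13.0 TPM in replicate 1 and 11.6 TPM in replicate 2 and was higher in replicate 1 (log2 ratio 0.24), which under spike-in scaling became 0.019 and did not pass (exact binomial adjusted p = 0.872). Across the 4 mitophagy genes the differences did not run 1 way, with 1 higher in replicate 1 and 2 higher in replicate 2 by the adjusted p.

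Tfeb and Tfe3 encode related transcription factors that switch on lysosome and autophagy genes, and neither passed the adjusted p. Under spike-in scaling both passed, higher in replicate 2. Their log2 ratios were then -0.18 and -0.43 (exact binomial adjusted p = 9.10e-05 and 0.000507). Tfeb had 39.2 TPM in replicate 1 and 39.5 TPM in replicate 2, and Tfe3 had 3.59 and 3.87 TPM. Tfeb was thus present at a higher level per length than its relative in both libraries. These factors bind an E-box element with the core TCACGTG.

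All 5 lysosomal genes passed the adjusted p, which 35.4% of tested genes did, and none reached the 2-fold limit. That share includes genes of far lower counts, where the test needs larger differences to pass, while the lowest count here was 1476 (Ctsl, replicate 1). With edgeR's exact test, whose dispersion includes the differences under test, none of the 5 passed. Ctsd, the aspartic protease cathepsin D, had 191 TPM in replicate 1 and 190 TPM in replicate 2. Its log2 ratio of 0.05 passed (exact binomial adjusted p = 0.0378) and reversed under spike-in scaling. It missed the threshold with DESeq2 size factors (adjusted p = 0.0514), without a count filter (0.0575) and with the second quantification (0.0935). Lamp1, a main glycoprotein of the lysosomal membrane, had 174 TPM in replicate 1 and 187 TPM in replicate 2 (log2 ratio -0.05, exact binomial adjusted p = 0.015). For both, the difference was far smaller than for Gabarapl1. Ctsb, the cysteine protease cathepsin B, had 89.3 TPM in replicate 1 and 101 TPM in replicate 2 (log2 ratio -0.13, exact binomial adjusted p = 3.05e-07). Ctsl, cathepsin L, differed most in this group, with 36.6 TPM in replicate 1 and 50.8 TPM in replicate 2, 1.36-fold higher in replicate 2 (exact binomial adjusted p = 1.11e-19). Lamp2 had 21.9 TPM in replicate 1 and 25.5 TPM in replicate 2 (log2 ratio -0.12), and it did not pass with the second quantification (exact binomial adjusted p = 0.0761).

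Macrophages are also rich in lysosomal proteins. All 10 macrophage markers passed the count filter but were low. They lay between 0.71 and 16.9 TPM in replicate 1 and between 0.76 and 20.4 TPM in replicate 2, with Lyz2 the highest. Their median log2 ratio was -0.23, and their part in the lysosomal levels was not tested.

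Lamp2 makes proteins that differ in their last exon. LAMP-2A is the receptor of chaperone-mediated autophagy, and loss of LAMP-2B is linked to a heart and skeletal muscle disease in humans. The last coding exons are shown because they tell the forms apart. They lie on the minus strand of chromosome X (GRCm38, GENCODE M21 transcripts), and capitals mark the last 5 codons before the stop.
Lamp2-201 (form A, chrX:38405432-38405571): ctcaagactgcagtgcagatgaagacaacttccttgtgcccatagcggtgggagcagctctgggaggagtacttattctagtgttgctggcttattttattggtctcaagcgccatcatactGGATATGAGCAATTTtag
Lamp2-202 (form B, chrX:38421712-38421851): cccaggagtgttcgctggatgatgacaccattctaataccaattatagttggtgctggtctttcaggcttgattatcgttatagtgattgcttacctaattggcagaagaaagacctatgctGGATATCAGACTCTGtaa
Lamp2-203 (form C, chrX:38402139-38402281): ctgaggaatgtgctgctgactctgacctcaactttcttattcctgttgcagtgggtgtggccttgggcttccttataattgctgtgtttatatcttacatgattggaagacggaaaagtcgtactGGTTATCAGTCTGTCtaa
Form B led in both libraries and both quantifications. It held 67.1% of Lamp2 TPM in replicate 1 and 63.0% in replicate 2 by the first, and 67.9% and 63.5% by the second. Form A held 20.8% in replicate 1 and 27.4% in replicate 2 by the first, and 16.8% and 24.04% by the second. Form C held 4.85% in replicate 1 and 4.16% in replicate 2 by the first quantification. The shift between libraries, more of form A in replicate 2, had the same direction in both quantifications, but with 1 library on each side it has no replicate check.

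**Figure D3:**
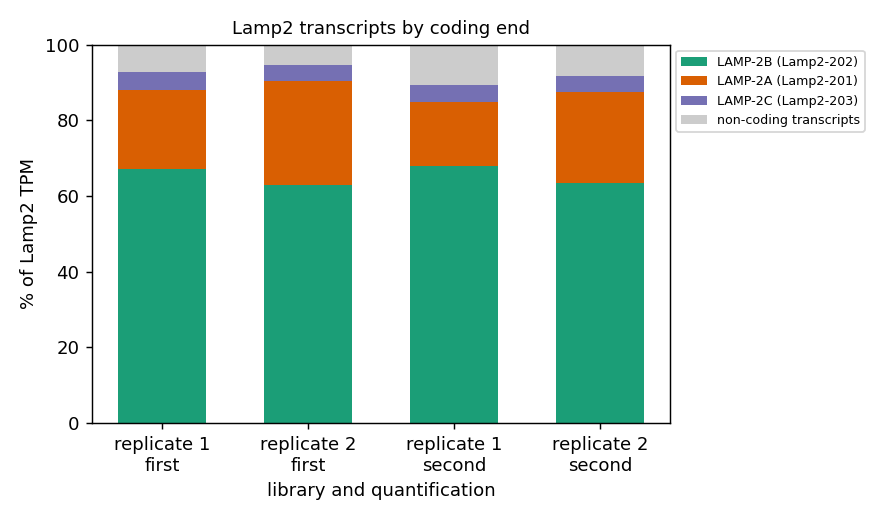
Share of Lamp2 TPM in each coding form and in non-coding transcripts, for each library and each deposited quantification, as stacked bars that sum to 100%. Form B fills 63.0% to 67.9% of every bar, and form A is larger in replicate 2 than in replicate 1 in both quantifications.

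For several members, transcripts not annotated as coding held much of the TPM. As the mean of both libraries, the coding share was below 50% by both quantifications for 4 members (10.8%), against 5.09% of 10058 detected genes. For Bnip3l it was 23.2% in replicate 1 and 21.9% in replicate 2, and the processed transcript Bnip3l-205 had 22.0 and 24.6 TPM. For Gabarapl2 it was 42.8% and 43.9%, with 25.9 TPM in replicate 1 and 25.8 TPM in replicate 2 in the retained-intron transcript Gabarapl2-203. For Ctsb it was 39.6% and 39.9%, with 53.6 TPM in replicate 1 and 60.02 TPM in replicate 2 in the retained-intron transcript Ctsb-202. For Becn1 it was 8.91% in replicate 1 and 22.1% in replicate 2 by the first quantification and 21.8% and 23.5% by the second. TPM divides by length, and in counts of the first quantification the order was the other way for Bnip3l, Gabarapl2 and Ctsb. The coding Bnip3l-202 held 1352 counts in replicate 1 and 1469 in replicate 2, against 479 and 586 for Bnip3l-205. The coding Gabarapl2-201 held 965 and 1115 counts, against 531 and 581 for Gabarapl2-203. Becn1 kept its order, with most counts, 1089 and 1133, in Becn1-201, annotated for nonsense-mediated decay. For Ctsb, the long coding transcript Ctsb-201 held 5186 counts in replicate 1 and 6454 in replicate 2, and the shorter Ctsb-202 held 1188 and 1457. The Ctsb locus also overlaps Fdft1 on the opposite strand, with 1848 counts in replicate 1 and 2233 in replicate 2.

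The quantifications disagreed on 3 further members. By the first, the coding share of Map1lc3a was 41.0% in replicate 1 and 44.4% in replicate 2, and by the second it was 99.98% and 98.3%. The first assigned 1176 counts in replicate 1 and 1374 in replicate 2 to the processed transcript Map1lc3a-203. Optn went the other way, with 80.8% and 88.6% by the first and 37.7% and 41.5% by the second. For Atg10 the shares were 74.0% and 58.1% by the first and 43.2% and 36.7% by the second. Over the members the median coding share was 93.9% by the first and 91.6% by the second quantification, close to the 94.3% and 92.3% of detected genes. The quantifications named the same leading transcript for 25 of 37 members (67.6%), against 75.9% of 9285 detected genes with several transcripts. Gene levels also differed, with a median ratio of second to first of 1.36 over detected genes and 18 members above that median. The ratio was 2.28 for Optn, 2.24 for Map1lc3b and 1.01 for Bnip3.

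**Figure D4:**
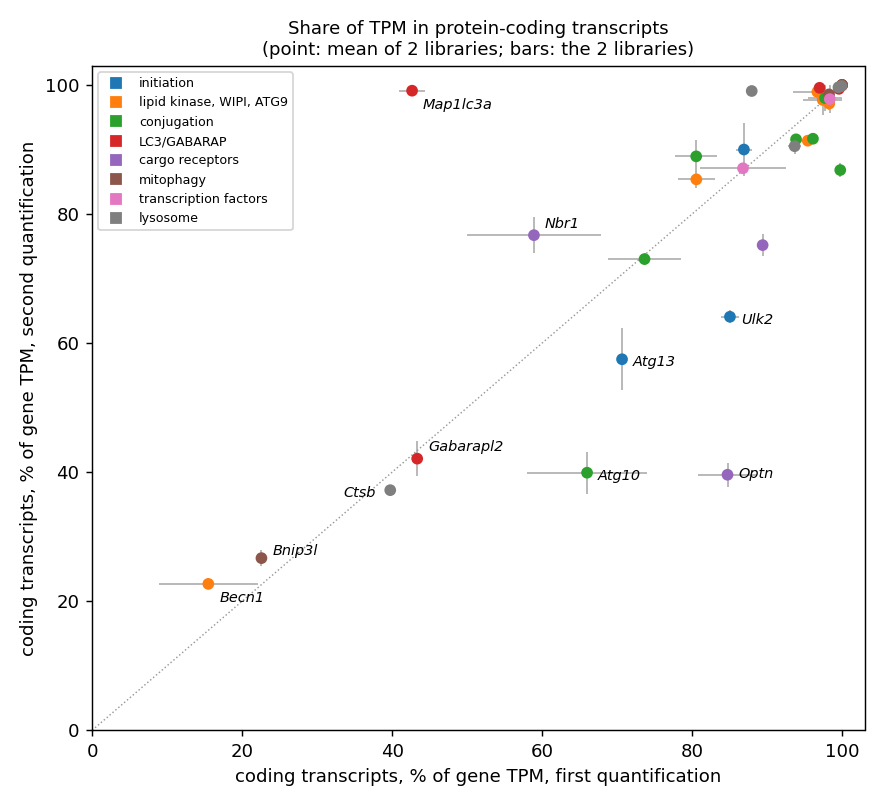
Share of each gene's TPM in protein-coding transcripts, in percent, by the first (horizontal) and second (vertical) deposited quantification. Points are means of the 2 libraries and bars reach the 2 values. Becn1, Bnip3l, Ctsb and Gabarapl2 lie low on both axes, Map1lc3a lies low on the horizontal axis alone, and Optn and Atg10 lie low on the vertical axis alone.

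Coding forms also varied within genes. By the first quantification, 19 members had at least 2 coding transcripts that each reached 10% of the gene's TPM in at least 1 library. Members were not counted this way by the second quantification. There, Bnip3-203 held only 1.20% in replicate 1 and 3.05% in replicate 2, while Wipi1-201 held 18.7% and 15.4%. For Wipi2, the transcript Wipi2-202 held 48.6% in replicate 1 and 55.1% in replicate 2, and Wipi2-201 held 48.1% and 39.0%. For Atg9a the leading coding transcript depended on the quantification, since Atg9a-201 held 54.5% and 56.0% by the first and 6.25% and 4.49% by the second. Ctsd moved between coding transcripts too, with Ctsd-201 at 25.9% in replicate 1 and 16.1% in replicate 2 by the first quantification and 0.632% and 0.377% by the second. By the rule of the first quantification, the others with several coding forms were Map1lc3b, Gabarap, Bnip3, Tfeb, Fundc1, Atg7, Tfe3 and Atg16l1. They also included Atg13, Atg4b, Pik3r4, Nbr1, Ctsl, Pink1, Wipi1 and Lamp2.

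Promoters from RefSeq (GRCm38.p6), running from 250 bases before to 50 bases after the start site, were matched by symbol for 30 of the 37 members. They were searched on both strands for CACGTG, for TCACGTG, which contains CACGTG, and for the forkhead motif TGTTTAC. The motif CACGTG was found in 8 of 30 members (26.7%), against 12.4% of 7969 detected genes and 8.09% of all 27025 genes with a promoter. TCACGTG was found in 5 members (16.7%), against 7.47% of detected genes and 4.29% of all genes with a promoter. Those 5 were Lamp1, Ctsd, Atg3, Atg7 and Atg14. TGTTTAC was in 0 of 30, against 3.15% of detected genes and 4.05% of all genes with a promoter. The 250 bases before the start site of Lamp1 and Ctsd are shown because these are the abundant lysosomal genes with the motif, and capitals mark TCACGTG on either strand.
Lamp1 (chr8:13158911-13159160, plus strand): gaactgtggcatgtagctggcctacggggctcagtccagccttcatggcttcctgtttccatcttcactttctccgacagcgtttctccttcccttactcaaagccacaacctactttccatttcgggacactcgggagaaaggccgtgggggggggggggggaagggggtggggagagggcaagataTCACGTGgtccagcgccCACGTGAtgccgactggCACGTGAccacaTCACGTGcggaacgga
Ctsd (chr7:142387828-142388077, minus strand): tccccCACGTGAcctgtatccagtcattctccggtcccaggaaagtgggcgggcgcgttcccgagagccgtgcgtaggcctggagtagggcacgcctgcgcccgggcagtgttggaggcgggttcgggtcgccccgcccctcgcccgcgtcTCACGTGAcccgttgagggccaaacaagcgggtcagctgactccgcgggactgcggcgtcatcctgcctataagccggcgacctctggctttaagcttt
The autophagy genes with the longer motif are shown with 10 bases on either side of CACGTG, in capitals, at each place it occurs.
Atg14: aacaaaatccCACGTGactggccctg
Atg3 (first site): ctccttttgtCACGTGtcctgggaga
Atg3 (second site): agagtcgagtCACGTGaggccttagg
Atg7: tattggtggtCACGTGtgcagtaagt
In Lamp1, CACGTG began at positions -61, -45, -28 and -15 relative to the start site. In Ctsd it began at -245 and -98. Atg14 held it at -1, across the start site, and Atg3 at -94 and -71. Atg7 held it at -132. Start sites here are those of RefSeq. The sites of Atg7 and Atg14 and the Ctsd site at -98 lie inside the genes as GENCODE places them. These matches describe sequence only. Members with the motif ranged in level from Atg14, with 2.89 TPM in replicate 1 and 2.83 TPM in replicate 2, to Ctsd, with 191 and 190 TPM.

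Among 121 other genes of the pathway, 118 passed the filter. Of these, 3 were called higher in replicate 1 and 1 higher in replicate 2, against the background of 1.7% and 4.48% of tested genes. With the adjusted p alone 50 passed, 26 higher in replicate 1 and 24 in replicate 2, where 35.4% of tested genes passed. The median log2 ratio was 0.01. The first of the called genes was Ddit4, an inhibitor of mTOR signalling, with 85.1 TPM in replicate 1 and 3.41 TPM in replicate 2, 25.8-fold higher in replicate 1. Foxo1, a forkhead factor that induces muscle autophagy genes, had 13.6 TPM in replicate 1 and 6.75 TPM in replicate 2 and was 2.09-fold higher in replicate 1 (interval 1.98 to 2.21). Trp53inp1, whose product binds LC3, had 7.87 TPM in replicate 1 and 4.35 TPM in replicate 2 and was 2.06-fold higher in replicate 1 (interval 1.85 to 2.29, exact binomial adjusted p = 4.68e-43). Nipsnap1, a mitochondrial protein, was called higher in replicate 2 from only 5 counts in replicate 1 and 23 in replicate 2, with an interval of 1.51 to 13.7. Its TPM differed less, at 0.34 in replicate 1 and 0.42 in replicate 2, both below the level taken as detected. Its effective length was 465.84 bases in replicate 1 and 1565.09 in replicate 2.

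Counts by list stand beside 6.18% of tested genes called and 35.4% passing the adjusted p alone. Of 26 core autophagy genes tested, 1 was called (15 passed the adjusted p). The most abundant were Trp53inp2 with 117 TPM in replicate 1 and 135 TPM in replicate 2, Rab7 with 119 and 111 TPM, and Rb1cc1 with 38.5 and 41.4 TPM. Of 21 receptor and mitophagy genes 1 was called (10 passed the adjusted p). Nipsnap2 led them with 187 TPM in replicate 1 and 227 TPM in replicate 2, followed by Vcp with 122 and 119 TPM. Retreg1, a receptor for autophagy of the endoplasmic reticulum, came next with 61.4 TPM in replicate 1 and 123 TPM in replicate 2, and at 1.92-fold it lay just short of the limit. Of 30 lysosomal enzyme genes 0 were called (8 passed the adjusted p). Psap, the precursor of the saposins, led with 376 TPM in replicate 1 and 324 TPM in replicate 2, and Gaa, the enzyme that degrades lysosomal glycogen, had 76.3 and 73.4 TPM. Ctsa had 22.4 and 23.6 TPM.

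Of 25 tested genes for the lysosomal membrane and its proton pump 0 were called (7 passed the adjusted p). The pump subunits Atp6v1g1 and Atp6v0c had 118 and 66.6 TPM in replicate 1, against 116 and 69.0 TPM in replicate 2, and the membrane protein Cd63 had 57.3 and 67.5 TPM. Of 16 regulators tested 2 were called, Ddit4 and Foxo1 (10 passed the adjusted p). By the mean of both libraries the most abundant was Rragd, a GTPase of nutrient sensing, with 83.8 TPM in replicate 1 and 73.4 TPM in replicate 2. Prkaa2, a catalytic subunit of AMP-activated kinase, had 67.4 and 56.3 TPM, and Foxo4 had 49.3 and 52.4 TPM. Among these lists and the members, the largest differences were thus in single genes and ran in both directions.

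**Figure D5:**
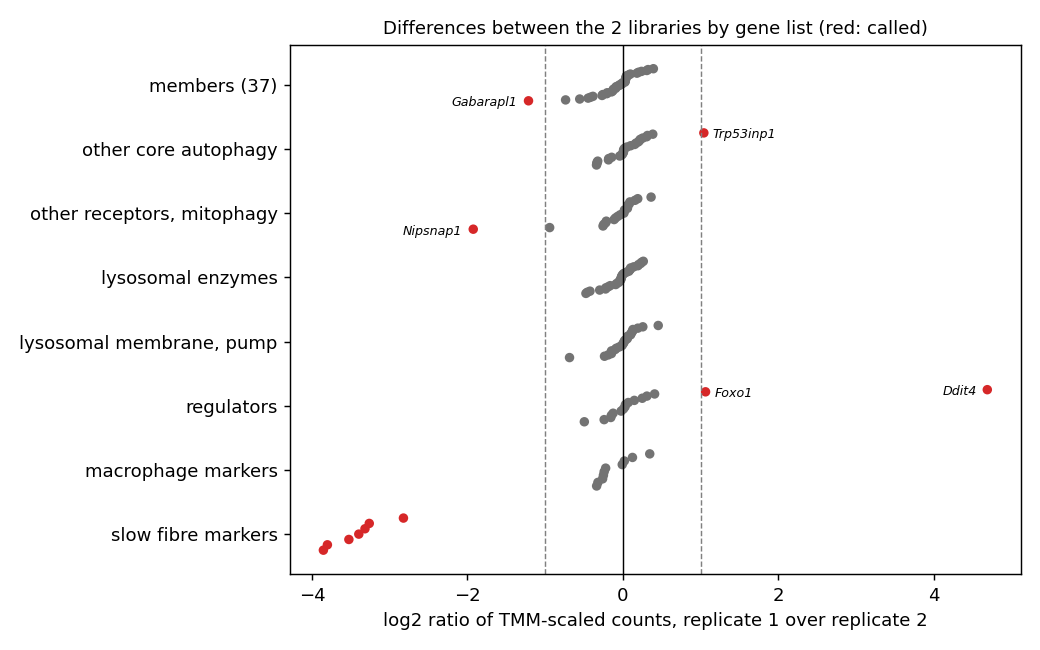
Log2 ratio of TMM-scaled counts, replicate 1 over replicate 2, for each tested gene of the members, 5 lists of other pathway genes and 2 marker lists, with called genes in red. Most pathway genes lie between the dashed 2-fold lines, Gabarapl1 and Nipsnap1 lie left of them, Trp53inp1, Foxo1 and Ddit4 lie right, and all 7 slow fibre markers lie far left.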

How the data were processed

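Total RNA libraries were made from 300 ng of RNA with an ERCC spike-in profile for stranded libraries reduced in ribosomal RNA, per the labels. The authors deposited, per the file headers, a gene table and a first transcript table with expected counts, TPM and percent of isoform use, and a second transcript table with estimated counts and TPM. The aligner, quantifier and counting strand are not given in the sources used. Assembly mm10 and GENCODE M21 are named per the labels and file names. Symbols came from that annotation. The 26248 tRNA entries and 96 spike-ins were left out of the gene tests.

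Expected counts were rounded to whole numbers, scaled by TMM (edgeR 4.0.16, R 4.3.3) and tested with exact binomial tests (scipy 1.17.1), after the script was tested on simulated data. Ratios use a pseudocount of 0.5. No quasi-likelihood test of edgeR was possible with 1 group. Alternatives used DESeq2 1.42.0 size factors, spike-in counts, other filters, the second quantification and edgeR's exact test (biological coefficient of variation 0.227). The coding transcripts were aligned pairwise. All members were named, with full statistics for called members and the 8 most abundant, and of other genes every called gene and the 3 most abundant per list. The members and lists were chosen with earlier results of these data known.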

Additional observations from a re-analysis of the deposited data

How the results depend on the processing

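The count of called members was 1 with DESeq2 size factors, spike-in scaling, either other count filter and the second quantification. It was 0 with edgeR's exact test, where 1.82% of tested genes were called and 1 member had an unadjusted p below 0.05, and 21 with the adjusted p alone. The median log2 ratio of members moved to -0.26 under spike-in scaling, which shifted all genes by -0.22. Their share of TPM was 0.196% of all gene entries, and 0.403% to 0.473% when either library was left out.

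Spike-in scaling reversed 12 of the 37 log2 ratios. They became -0.039 for Ulk2, -0.12 for Becn1, -0.18 for Pik3c3, -0.15 for Pik3r4, -0.19 for Atg14 and -0.019 for Atg9a. They became -0.19 for Atg5, -0.19 for Atg16l1, -0.18 for Sqstm1, -0.19 for Bnip3l, -0.18 for Tfeb and -0.17 for Ctsd. The largest of these 12 was 0.20 before. Over 6 settings, 209 of 222 member values kept their direction and their side of the combined rule of adjusted p and 2-fold. By the adjusted p alone, of the 21 members 20 kept it with DESeq2 size factors, 20 without a count filter and 21 at the higher filter. With the second quantification 19 kept it, and with edgeR's exact test 0. Under spike-in scaling 16 kept it, with Ctsd passing in the opposite direction, and 11 others also passed. Those 11, all higher in replicate 2, were Ulk1, Atg13, Becn1, Wipi2, Atg4b, Atg16l1, Gabarapl2, Sqstm1, Bnip3l, Tfeb and Tfe3. No paired analysis was possible because the series has 1 group. With 2 libraries, depth limits the low members most, Atg10 having 147 counts in replicate 1 and 245 in replicate 2.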
